A study of Rattus norvegicus with 12 samples.

Results

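The 9 genes described here, Mbp, Mog, Mag, Mobp, Cnp, Cldn11, Mal, Omg and Ermn, encode proteins that build, seal or mark the myelin sheath of the central nervous system. The list of 9 was drawn up with earlier results of these data known. Every non-control probe whose gene name in the array files was 1 of these 9 was taken, in all 12 samples, whatever its values. This gave 14 probes printed at 32 spots per array, of 30367 probes and 42877 non-control spots in all. Of the 14 probes, 12 were well above background (as scored by the scanner software) in at least 3 of the 4 samples of a group and entered the tests, and these 12 covered 8 of the 9 genes. The probe for Mal and the second probe for Ermn did not pass.

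The samples were total RNA of prefrontal cortex, taken from female Sprague-Dawley rats and hybridized to 6 Agilent arrays read in 2 colours, with 4 animals in each of 3 groups. In the group given betamethasone with ketamine, dams had received 2 injections of betamethasone, a synthetic glucocorticoid, at 0.4 mg/kg each on gestational day 15, and the pups received ketamine, a blocker of NMDA-type glutamate receptors, at 35 mg/kg on postnatal day 14 (ketamine animals below). In the betamethasone group the dams had the same injections and the pups received saline on postnatal day 14. In the control group saline was given at both ages. Tissue is labelled as taken on postnatal day 15, although 1 label field gives a different age. The labels say that ketamine or saline on postnatal day 14 went to rats with infantile spasms, without telling which samples came from such rats. Litters had been reduced to 4 females, and the labels do not tell which animals were littermates, so the p-values measure only the spread between these animals and the arrays they shared.

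Myelin is made by oligodendrocytes, which wrap sheets of their membrane around axons. In rat forebrain, sheath formation proceeds during the first postnatal weeks, which include the age sampled. Mbp and Mobp encode small basic proteins that hold the cytoplasmic faces of compact myelin together. Cnp and Ermn encode cytoskeleton-linked proteins of the cytoplasm-containing parts of the sheath. Cldn11 encodes the claudin of the tight junctions that run along it, and Mal a tetraspan membrane protein of lipid-rich domains. Mag faces the axon on the innermost turn, Mog lies on the outermost surface, and Omg is a lipid-anchored surface protein carried by oligodendrocytes and also by neurons. Mag and Omg are ligands of the Nogo receptor, through which they limit axon growth.

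Each probe is a strand of 60 bases, and the probes shown here are those whose position matters for reading the values below. Positions are on the rn4 build, as the array files give them. Mbp had 2 probes on chromosome 18, at chr18:79057264-79057323 (probe A_64_P017163, described in the files as transcript variant 1) and at chr18:79026442-79026501 (probe A_64_P017160, described as transcript variant 6), both on the + strand and 30762 bases apart. The last 30 bases of the variant 1 probe and the last 30 bases of the variant 6 probe are given with any AATAAA, the usual polyadenylation hexamer, in capitals.
Mbp variant 1 probe: tattgaAATAAAatAATAAActtgcaatga
Mbp variant 6 probe: cctgtgaattaaaatgtatcagaagataaa
The variant 1 probe held the hexamer 2 times and the variant 6 probe held none in its 60 bases.

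Mag had 2 probes on chromosome 1, on the - strand, that lay 24 bases apart: chr1:85954601-85954660 (A_64_P019613, 1 spot per array) and, downstream, chr1:85954517-85954576 (A_42_P646991, 10 spots per array). The last 30 bases of the upstream probe and the first 30 bases of the downstream one show that the second began past the hexamer of the first.
Mag upstream probe: aaaagggacatgaAATAAAtgtcctaatga
Mag downstream probe: ttggaggaaaggggcatattagtaatactt

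For Cldn11, Cnp and Omg, each read by 1 probe and 1 spot per array, and for the Mobp probe nearest the gene's start, the whole probe is shown, since no repeated spot or second probe stood behind the first 3 and the fourth differed less from control than the other Mobp probes did. They lay at chr2:116627458-116627517 (- strand), chr10:89524880-89524939 (+ strand), chr10:65689469-65689528 (- strand) and chr8:125135770-125135829 (+ strand).
Cldn11 probe: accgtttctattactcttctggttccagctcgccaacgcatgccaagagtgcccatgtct
Cnp probe: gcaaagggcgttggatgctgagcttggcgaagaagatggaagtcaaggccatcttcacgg
Omg probe: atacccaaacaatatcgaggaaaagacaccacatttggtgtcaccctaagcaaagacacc
Mobp first probe: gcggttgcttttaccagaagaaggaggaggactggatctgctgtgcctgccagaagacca
The other probes of Mobp lay at chr8:125136405-125136464 (A_64_P134953) and chr8:125143743-125143802 (A_44_P167930). Mog was read at chr20:1611776-1611835, Ermn at chr3:39821050-39821109 (10 spots per array) and chr3:39823067-39823126, and Mal at chr3:115167515-115167574.

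Both channels of an array carried animals of 1 group, with odd-numbered animals in Cy3 and even-numbered ones in Cy5. For the controls, the names of the scanner files and the deposited value table give the arrays the opposite numbers, so that controls 1 and 2 here may be animals 3 and 4 and the reverse. Comparisons of groups without a replicate block do not depend on these numbers. The control arrays lay on a slide of their own and the other 4 arrays on another, so in comparisons with control the effects of slide and of treatment cannot be told apart, whereas betamethasone with ketamine and betamethasone shared a slide. Between 71.4% and 81.5% of the non-control spots of a sample were well above background and none was saturated. Areas rich in spots that departed from the other arrays made up 5.21% of the array of ketamine animals 1 and 2 and 1.23% of that of controls 3 and 4. Of the 32 member spots on each of the 6 arrays, 1 lay in such an area, that of Cldn11 on the array of controls 3 and 4. In whole tissue, fewer oligodendrocytes and less RNA per cell cannot be told apart. Values below are log2 intensities after normalization, comparable between samples for 1 probe and not between probes.

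Counts of genes here and in the other comparisons use the brightest probe of each gene. After betamethasone alone, the log2 change against control was below 0 for all 8 tested genes, with a median of -0.58. The median over all 21533 probes tested was 0.03, and 43.7% of the probes were below 0. None of the 8 genes passed the test (limma with the dye as a term and the array as a random block, Benjamini-Hochberg adjusted p under 0.05), beside 46 of all probes, or 0.214%. At an unadjusted p under 0.05, 2 of the 8 genes were lower by their brightest probe, Cldn11 and Mag, and none higher. Of all probes, 4.79% were lower and 6.63% higher at that p. The other Mbp probe, which also entered the tests, was higher, at 0.31 (unadjusted p = 0.0379 by limma). In 3 of the 8 genes, Cldn11, Mag and Ermn, every betamethasone animal lay below every control animal, beside 7.18% of all probes lower and 10.3% higher in that way. The 2 largest differences belonged to Cldn11, at -1.11, and Mag, at -0.95, and the smallest to Cnp, at -0.05, whose sign turned to 0.16 with the scanner software's own processed signals. The median of the 8 genes was -0.32 without the array of betamethasone animals 1 and 2, and -0.38, -0.38 and -0.34 without betamethasone animal 1, control 2 or control 3.

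After betamethasone with ketamine, the change against betamethasone alone had a median of 0.05 over the 8 genes and was below 0 for 2 of them, Mag at -0.15 and Cldn11 at -0.01. Leaving out 1 animal or array in turn, 0 to 7 genes were below 0. The median over all probes was also 0.05, and 36.8% were below 0. No member passed the test, nor did any of the 21533 probes (0% called by limma, smallest adjusted p 0.217), while 680 probes, or 3.16%, had an unadjusted p under 0.05. No member was among those, and in none of the 8 genes did the 2 groups separate, beside 4% of all probes. The widest difference was that of Omg, 0.36 ± 0.20 (SE, adjusted p = 0.910 by limma).

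Between betamethasone with ketamine and control, 6 of the 8 genes had a change below 0, with a median of -0.48 against 0.07 over all probes, of which 36% were below 0. No member passed the test, beside 17 of all probes, or 0.0789%. At an unadjusted p under 0.05, 2 genes were lower, again Cldn11 and Mag, and none higher, beside 4.25% of all probes lower and 9.6% higher. These 2 were also the genes in which the groups did not overlap, beside 3.66% of all probes lower and 11.9% higher in that way. Leaving out 1 animal or array in turn, the change of Cldn11 ranged from -1.98 to -0.27. Both comparisons with control use the same 4 control animals, so their values for a gene are not separate evidence. The median of the 8 genes was -0.18 without the array of ketamine animals 1 and 2, -0.74 without that of ketamine animals 3 and 4, and -0.28 without control 2 or control 3.

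**Figure D1:**
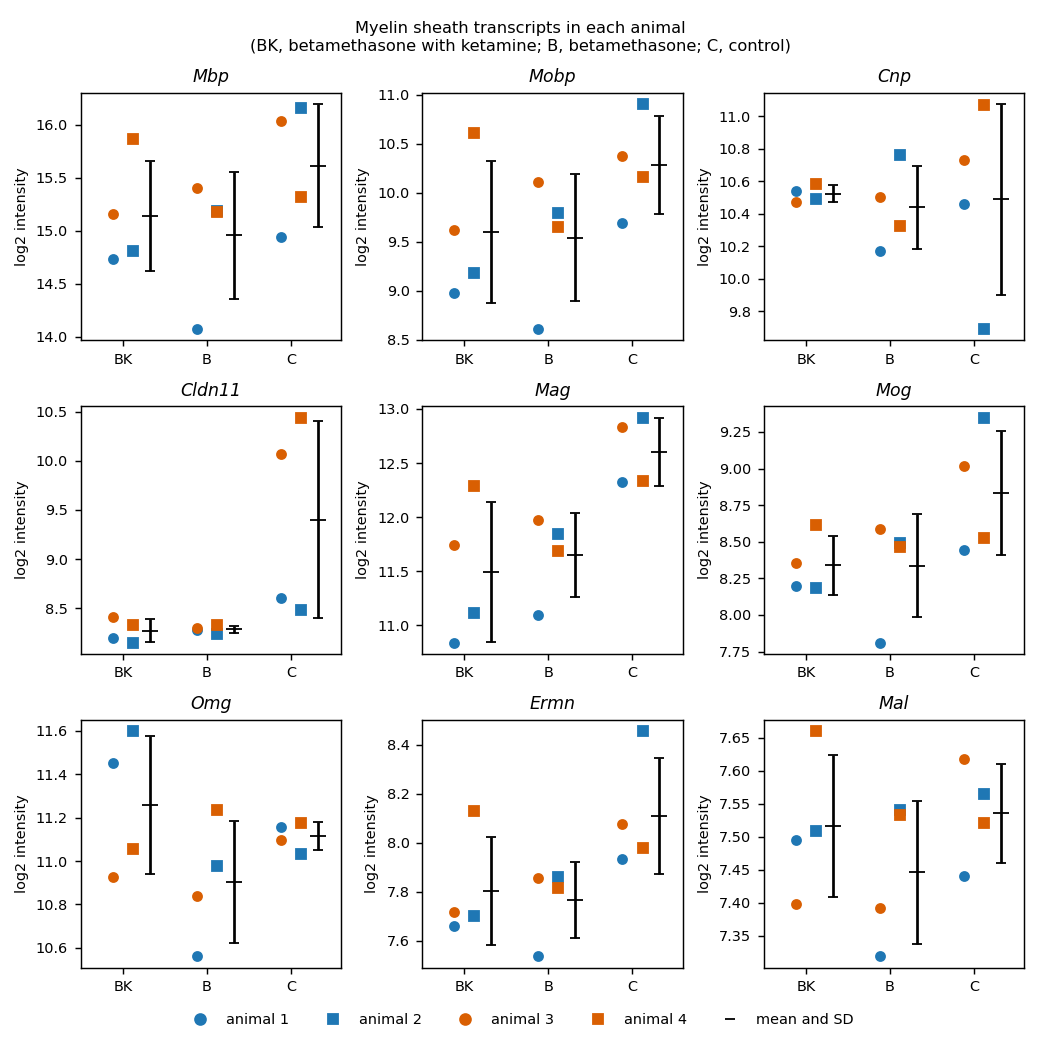
Log2 intensity (vertical axis) of each myelin sheath gene in every animal, for the brightest probe of each gene; columns are betamethasone with ketamine (BK), betamethasone (B) and control (C), blue points are animals 1 and 2 of a group and orange points animals 3 and 4, which share an array, and bars give the mean and SD of 4 animals. In Mag the 4 control animals sit between 12.33 and 12.92, above all 8 others, while in Cldn11 only controls 3 and 4, at 10.07 and 10.44, stand apart.

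Mbp, the major basic protein gene of compact myelin, read 14.73, 14.81, 15.16 and 15.87 in the animals given betamethasone with ketamine, 14.07, 15.18, 15.41 and 15.17 after betamethasone, and 14.94, 16.16, 16.03 and 15.32 in controls, by its variant 1 probe. The groups overlapped: control 1 lay below 3 of the 4 betamethasone animals, and betamethasone animal 1 was the lowest of all 12. The change was -0.66 ± 0.54 (SE) for betamethasone against control (adjusted p = 0.706 by limma), 0.18 ± 0.54 for ketamine against betamethasone (0.973) and -0.47 ± 0.54 for betamethasone with ketamine against control (0.700). The 95% interval of the first ran from -1.86 to 0.55 and spanned 0.

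The variant 6 probe of Mbp, 30762 bases upstream, did not follow. It read 8.96, 9.01, 9.30 and 9.29 after betamethasone with ketamine, 9.18, 9.35, 9.31 and 9.34 after betamethasone, and 8.95, 9.18, 8.97 and 8.85 in controls. Its change between betamethasone and control was 0.31 ± 0.13, of the opposite sign to that of the variant 1 probe (unadjusted p = 0.0379, adjusted p = 0.408 by limma), and the difference between the 2 probes was not tested. Against control it was 0.15 ± 0.13 after betamethasone with ketamine. Animals of a group were closer for this probe, with SDs of 0.18, 0.08 and 0.14 in the 3 groups, than for the variant 1 probe, with SDs of 0.52, 0.60 and 0.58.

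Mobp, whose product also binds the cytoplasmic faces of compact myelin, read 8.98, 9.18, 9.62 and 10.61 after betamethasone with ketamine, 8.61, 9.79, 10.11 and 9.65 after betamethasone, and 9.70, 10.91, 10.38 and 10.16 in controls by its brightest probe, A_64_P134953. The spread within each group exceeded 1 log2 unit, and the groups overlapped. The changes were -0.75 ± 0.55 for betamethasone against control (adjusted p = 0.656 by limma), 0.06 ± 0.55 for ketamine against betamethasone and -0.69 ± 0.55 for betamethasone with ketamine against control. The probe farthest downstream, A_44_P167930, gave -0.45 ± 0.37, 0.11 ± 0.37 and -0.34 ± 0.37 in the same comparisons. The first Mobp probe, shown above, gave -0.20 ± 0.28, 0.22 ± 0.28 and 0.02 ± 0.28. All 3 probes had their lowest value in betamethasone animal 1.

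Mal could not be assessed. Its probe was well above background in 2 of 4 animals after betamethasone with ketamine, 2 of 4 after betamethasone and 1 of 4 controls, with means of 7.52 ± 0.11, 7.45 ± 0.11 and 7.54 ± 0.07 (SD, n = 4 each).

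Among the genes of the cytoplasm-containing sheath, Cnp, which encodes a phosphodiesterase attached to membrane and microtubules, read 10.54, 10.49, 10.47 and 10.59 after betamethasone with ketamine, 10.17, 10.76, 10.50 and 10.33 after betamethasone, and 10.46, 9.69, 10.73 and 11.07 in controls. The ketamine animals lay between 10.47 and 10.59, inside the range of the controls, whose 2 arrays differed by 0.82. The change was -0.05 ± 0.36 for betamethasone against control (95% interval -0.83 to 0.74), 0.08 ± 0.36 for ketamine against betamethasone and 0.03 ± 0.36 for betamethasone with ketamine against control. Without the array of controls 3 and 4 the first of these turned to 0.36, and without that of controls 1 and 2 it was -0.46.

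Ermn, which encodes an actin-binding protein of the late oligodendrocyte, read 7.66, 7.70, 7.72 and 8.13 after betamethasone with ketamine, 7.54, 7.86, 7.86 and 7.82 after betamethasone, and 7.93, 8.45, 8.08 and 7.98 in controls, by the probe with 10 spots. All 4 betamethasone animals lay below all 4 controls, and 3 of the 4 ketamine animals did as well. The change was -0.34 ± 0.19 for betamethasone against control (adjusted p = 0.530 by limma), 0.03 ± 0.19 for ketamine against betamethasone and -0.31 ± 0.19 for betamethasone with ketamine against control (adjusted p = 0.479).

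Cldn11, which encodes the claudin of the myelin tight junction, read 8.20, 8.15, 8.41 and 8.33 after betamethasone with ketamine, 8.28, 8.24, 8.30 and 8.33 after betamethasone, and 8.60, 8.48, 10.07 and 10.44 in controls. The 8 treated animals lay between 8.15 and 8.41, controls 1 and 2 just above them, and controls 3 and 4 far above. The change was -1.11 ± 0.40 for betamethasone against control (adjusted p = 0.319 by limma), -0.01 ± 0.40 for ketamine against betamethasone and -1.13 ± 0.40 for betamethasone with ketamine against control (adjusted p = 0.300). The spot of controls 3 and 4 lay in an area of that array rich in departing spots, and the 2 control arrays differed by 1.71, more than for 99.3% of all probes. Without that array the first change was -0.26 (adjusted p = 0.305 by limma), and without the array of controls 1 and 2 it was -1.97 (adjusted p = 0.00058), with 335 probes passing in all. With departing areas set to missing too few control values were left for a test.

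Mag, which encodes the adhesion molecule of the axon-facing turn, read 10.84, 11.11, 11.74 and 12.28 after betamethasone with ketamine, 11.10, 11.84, 11.97 and 11.69 after betamethasone, and 12.33, 12.92, 12.83 and 12.33 in controls, by its upstream probe. Every control lay above every other animal, the closest being ketamine animal 4. The change was -0.95 ± 0.41 for betamethasone against control (95% interval -1.85 to -0.05, unadjusted p = 0.0398, adjusted p = 0.414 by limma), -0.15 ± 0.41 for ketamine against betamethasone and -1.11 ± 0.41 for betamethasone with ketamine against control (adjusted p = 0.312). Without the array of ketamine animals 3 and 4 the last was -1.63 (adjusted p = 0.0138 by limma), a setting in which 3495 of all probes passed.

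The downstream Mag probe gave -0.76 ± 0.35 for betamethasone against control (adjusted p = 0.437 by limma), again with no overlap, 0.03 ± 0.35 for ketamine against betamethasone and -0.73 ± 0.35 for betamethasone with ketamine against control (adjusted p = 0.376), where ketamine animal 4, at 8.71, overlapped the lowest control, at 8.57. Its 10 spots also gave the spread within a sample. The SD over the spots of a sample ran up to 0.24 (control 2), while the SD between animals was 0.33 after betamethasone with ketamine, 0.38 after betamethasone and 0.46 in controls. In betamethasone animal 1 its 10 spots ran from 7.52 to 7.85, below all spots of betamethasone animal 2, which shared the array and ran from 8.32 to 8.68. In control 2 they ran from 9.33 to 10.02, above all spots of control 1, at 8.58 to 8.98. The animals of each of these pairs also differed in dye.

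**Figure D2:**
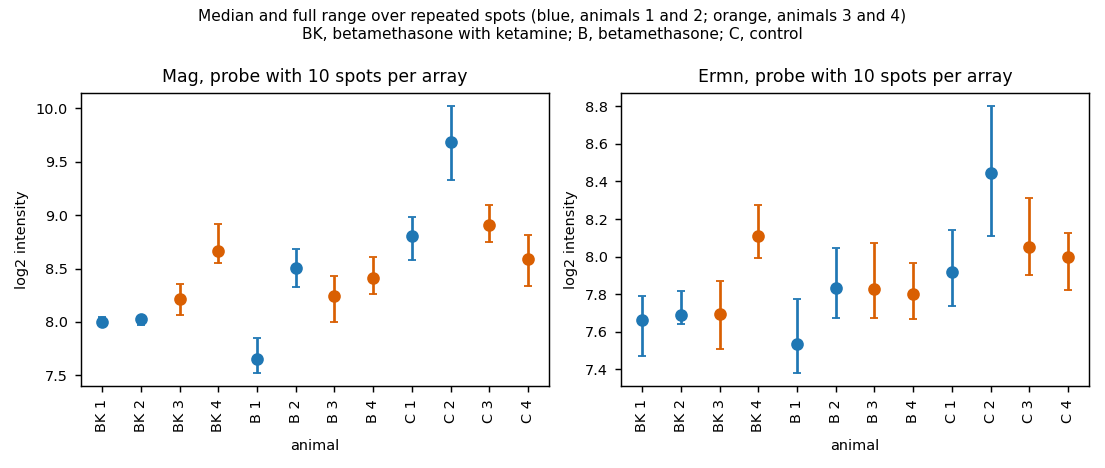
Log2 intensity (vertical axis) at the repeated spots of 1 probe each of Mag and Ermn in every animal (horizontal axis; BK, betamethasone with ketamine; B, betamethasone; C, control); points are medians, bars the full range over up to 10 spots, blue for animals 1 and 2 and orange for animals 3 and 4 of a group. The bars of Mag in betamethasone animals 1 and 2, with medians of 7.65 and 8.51, do not meet, nor do those of controls 1 and 2, at 8.80 and 9.68. Animals 1 and 2 of a group differed in dye.

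Mog, which encodes an immunoglobulin-domain protein of the outermost sheath surface, read 8.20, 8.18, 8.35 and 8.62 after betamethasone with ketamine, 7.81, 8.49, 8.58 and 8.47 after betamethasone, and 8.45, 9.35, 9.02 and 8.52 in controls. The groups overlapped, and 2 controls lay above all other animals. The change was -0.50 ± 0.35 for betamethasone against control (adjusted p = 0.642 by limma), 0.00 ± 0.35 for ketamine against betamethasone and -0.49 ± 0.35 for betamethasone with ketamine against control (adjusted p = 0.533).

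Omg, the lipid-anchored Nogo receptor ligand, read 11.45, 11.60, 10.93 and 11.06 after betamethasone with ketamine, 10.56, 10.98, 10.84 and 11.24 after betamethasone, and 11.16, 11.03, 11.10 and 11.18 in controls. Controls lay close together, with an SD of 0.06, in the middle of the other animals. The change was -0.21 ± 0.20 for betamethasone against control (adjusted p = 0.744 by limma), 0.36 ± 0.20 for ketamine against betamethasone and 0.14 ± 0.20 for betamethasone with ketamine against control. The 2 ketamine arrays differed by 0.53. The change for ketamine against betamethasone was 0.62 (adjusted p = 0.0438 by limma) without the array of ketamine animals 3 and 4, a setting in which 2569 probes passed in all.

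**Figure D3:**
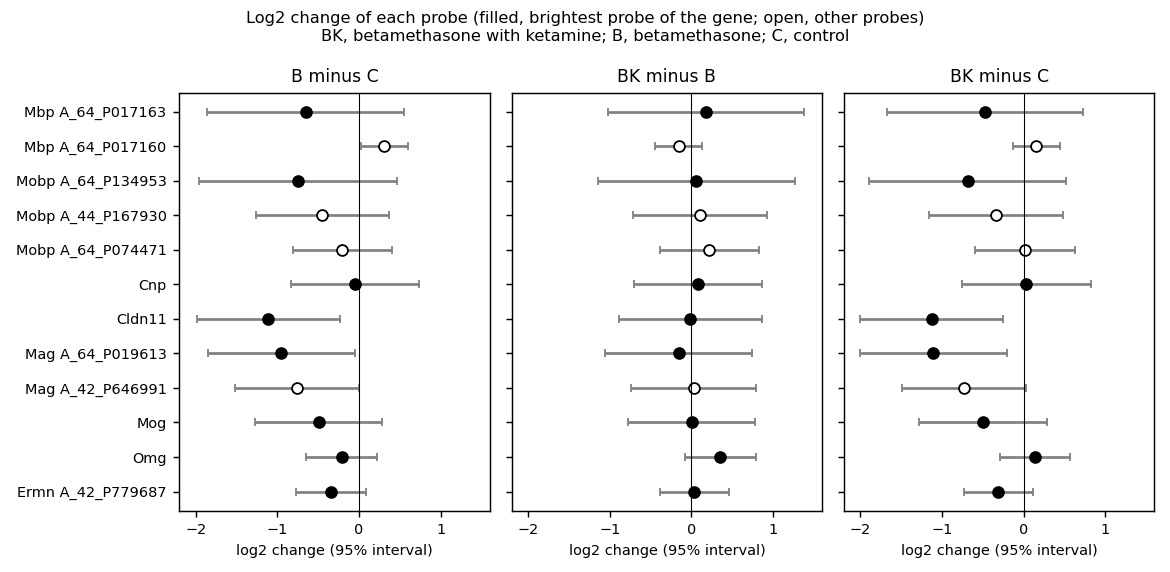
Log2 change with its 95% interval (horizontal axis) for the 12 probes past the filter in the 3 comparisons of betamethasone with ketamine (BK), betamethasone (B) and control (C); filled points are the brightest probe of a gene and open points its other probes. All points but that of the second Mbp probe lie below 0 in betamethasone minus control, most intervals span 0, and the points of betamethasone with ketamine minus betamethasone lie between -0.15 and 0.36.

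The genes did not vary as 1 block. Over the 12 animals, the Pearson correlation of a gene with the mean of the other 7 was 0.87 for Mag, 0.87 for Mbp, 0.87 for Mobp, 0.85 for Mog and 0.84 for Ermn, but 0.50 for Cldn11, 0.09 for Cnp and 0.00 for Omg. These are descriptions over samples that share arrays and group differences. Control 2 had the highest value of all 12 animals for the first 5 of these genes, and betamethasone animal 1 the lowest for 4 of them, the exception being Mag, and for Omg. Within the array they shared, betamethasone animal 1 minus animal 2 was -1.11 for Mbp and -1.18 for Mobp on the log2 scale. Control 1 minus control 2, also on 1 array, was -1.22 and -1.21. Animals that shared an array differed in dye, so animal and dye cannot be told apart in these gaps. For both genes the Cy3 animal was the higher on the arrays of controls 3 and 4 and of betamethasone animals 3 and 4. It was the lower on both ketamine arrays. All 8 genes were above their own mean in controls 3 and 4, and none was in betamethasone animal 1 or ketamine animal 3.

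**Figure D4:**
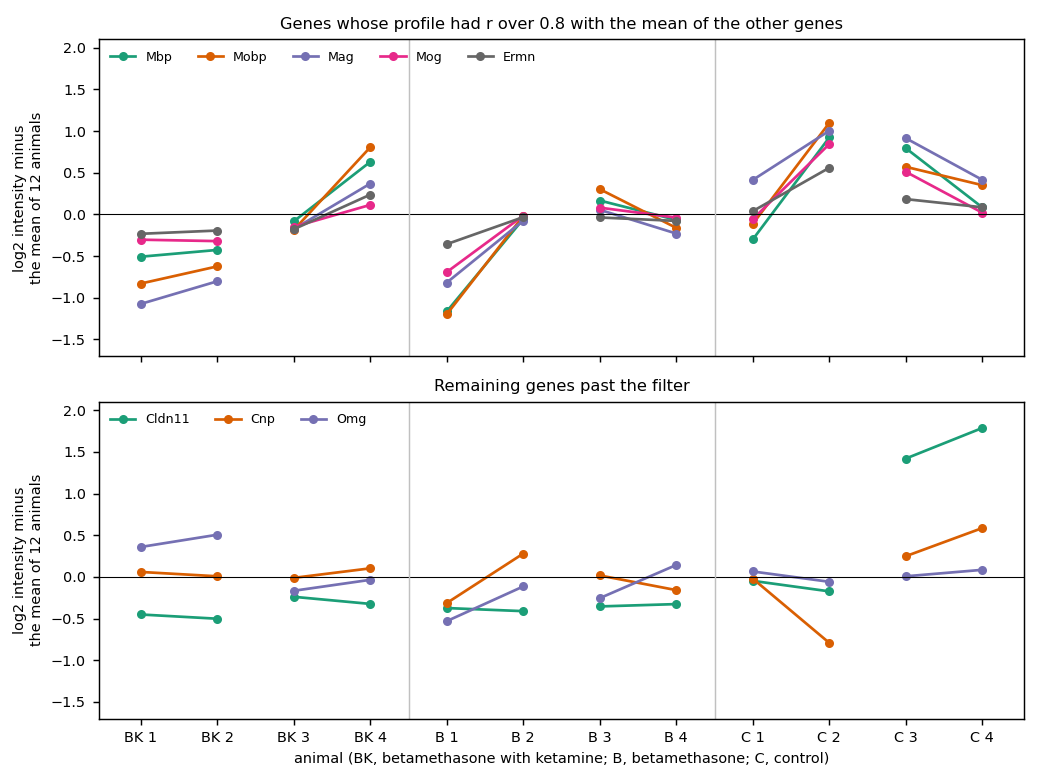
Log2 intensity of each gene minus its mean over 12 animals (vertical axis) in every animal (horizontal axis; BK, betamethasone with ketamine; B, betamethasone; C, control); lines join animals on the same array. Mbp, Mobp, Mag, Mog and Ermn run alike, with control 2 highest in each, whereas Cldn11, Cnp and Omg do not follow them. Mbp, Mobp, Mog and Ermn are lowest in betamethasone animal 1, and Mag in ketamine animal 1.

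Arrays of 1 group also differed in some of these genes. Animals 3 and 4 lay above animals 1 and 2 by 0.74 for Mbp, 1.04 for Mobp and 1.04 for Mag after betamethasone with ketamine, and by 0.66, 0.68 and 0.36 after betamethasone. The same gap was 0.13, -0.03 and -0.04 in controls. Over all probes the median absolute gap between the arrays was 0.19, 0.06 and 0.15 in the 3 groups. The gaps of Mbp, Mobp and Mag exceeded those of 95.1% to 97% of the probes after betamethasone with ketamine and of 95.8% to 98.3% after betamethasone. No spot of these 3 probes lay in a departing area. The gap of Mog was 0.29, 0.38 and -0.13 in the 3 groups and that of Ermn 0.24, 0.14 and -0.17. Omg ran the other way after betamethasone with ketamine, at -0.53, against 0.27 after betamethasone and 0.04 in controls. Cldn11 and Cnp differed most between the control arrays, by 1.71 and 0.82, with gaps of 0.20 and 0.01 after betamethasone with ketamine and 0.05 and -0.05 after betamethasone.

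The profile most like the mean of the 8 genes, by Pearson correlation over the 12 animals among 18049 genes, was that of Nxph3 (0.92), and those of Pcdhb3 (0.90), Myh2 (0.90) and Fa2h (0.87) were also among the 5 most like it. Fa2h encodes the enzyme that hydroxylates myelin lipids. Over the 8 animals on the slide without controls, the correlation was 0.87 for Fa2h, 0.86 for Myh2, 0.82 for Nxph3 and 0.80 for Pcdhb3.

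Of 22 other genes of myelin proteins, none passed the test in any comparison. After betamethasone, 11 of the 22 were below control, with a median of -0.02. Plekhb1, which encodes a pleckstrin-domain protein, averaged 12.68 ± 0.22 after betamethasone and 11.90 ± 0.41 in controls (SD, n = 4 each), and Tppp3, a tubulin-binding protein gene, 12.80 ± 0.17 and 12.45 ± 0.125. After betamethasone with ketamine, 9 of the 22 were below betamethasone alone, with a median of 0.04. Qdpr, a pteridine reductase gene, averaged 11.99 ± 2.31 after betamethasone with ketamine and 13.96 ± 0.11 after betamethasone. Gsn, the gelsolin gene, averaged 10.31 ± 1.33 and 11.41 ± 0.14. In both, the SD in the ketamine group was about the size of the difference. The mean level of the 22 genes was 9.586 and 9.594 in ketamine animals 1 and 2. It was 10.004 and 10.119 in ketamine animals 3 and 4, and from 9.925 to 10.079 after betamethasone. Ketamine animals 1 and 2 shared the array with the largest departing areas, 5.21%. Whether the lower means of Qdpr and Gsn came from that array was not tested. Tppp, another tubulin-binding protein gene, averaged 8.51 ± 0.43 after betamethasone with ketamine and 9.25 ± 0.26 in controls (adjusted p = 0.252 by limma).

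All 5 myelin lipid enzymes were below control after betamethasone, with a median of -0.23 and none called. Ugt8, which adds galactose to ceramide, averaged 7.79 ± 0.12 after betamethasone and 8.17 ± 0.25 in controls, and Aspa, which frees acetate from acetylaspartate, 8.48 ± 0.46 and 9.02 ± 0.41. After betamethasone with ketamine, 4 of the 5 were above betamethasone alone (median 0.18), among them Aspa (8.86 ± 0.04 and 8.48 ± 0.46) and Gal3st1, the sulfatide synthase gene (9.03 ± 0.21 and 8.75 ± 0.06). Of the oligodendrocyte lineage genes, 12 of 13 were tested and none was called. Their median change was -0.11 after betamethasone and -0.12 after betamethasone with ketamine, both against control. Zfp488, an oligodendrocyte repressor gene, averaged 8.19 ± 0.12 after betamethasone with ketamine, 8.08 ± 0.09 after betamethasone and 7.26 ± 0.75 in controls. Enpp6, a marker of newly formed oligodendrocytes, averaged 8.35 ± 0.13, 8.16 ± 0.18 and 8.42 ± 0.07 in the same order of groups. Olig2 averaged 11.15 ± 0.46 after betamethasone with ketamine and 11.47 ± 0.10 after betamethasone, and Olig1 12.91 ± 0.15 after betamethasone with ketamine and 13.23 ± 0.20 in controls.

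None of the 7 genes of the Nogo receptor pathway, which receives Mag and Omg, passed the test, and their median changes lay between -0.01 and 0.10. Rtn4rl2 averaged 12.60 ± 0.15 after betamethasone and 13.08 ± 0.44 in controls, and Ngfr 8.15 ± 0.11 and 8.02 ± 0.08. Rtn4rl1 averaged 11.28 ± 0.305 after betamethasone with ketamine, 11.02 ± 0.13 after betamethasone and 10.92 ± 0.10 in controls. The Nogo receptor gene itself, Rtn4r, averaged 11.63 ± 0.12 after betamethasone with ketamine and 11.40 ± 0.43 in controls. Of the axonal partners at node and paranode, 7 of 8 were tested and none was called, with a median of -0.21 after betamethasone against control. Nrcam, an axonal adhesion gene of the node, averaged 10.66 ± 0.08 after betamethasone and 11.09 ± 0.16 in controls (adjusted p = 0.110 by limma), and Cntn2, a contactin of the region beside the paranode, 9.26 ± 0.44 and 9.63 ± 0.13. After betamethasone with ketamine Cntn2 averaged 9.68 ± 0.03, against 9.26 ± 0.44 after betamethasone. Sptbn4, the spectrin of the node, averaged 14.04 ± 0.16 after betamethasone with ketamine and 13.84 ± 0.11 after betamethasone.

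Markers of other cell types were read in the same samples. None of them passed the test, and their part in the differences above was not tested. At an unadjusted p under 0.05, 3 of 7 astrocyte and 3 of 7 microglia markers were higher after betamethasone with ketamine than in controls and none lower. All 6 tested neuron markers were above control, 1 of them at that p. Of the 4 tested endothelial markers, 2 were higher at that p, Pecam1 and Cldn5, and none lower. Of all probes, 9.6% were higher and 4.25% lower at that p, and only 36% had a change below 0. After betamethasone alone, 2 astrocyte markers were higher and 1 lower than in controls at that p, 1 microglia marker was higher and 1 lower, and 1 neuron marker was higher. Of all probes, 6.63% were higher and 4.79% lower in that comparison. The mean log2 level of the 5 neuron markers with a value in every sample ranged from 13.09 to 13.47 after betamethasone with ketamine, from 12.95 to 13.14 after betamethasone and from 12.73 to 13.13 in controls; Rbfox3 was not tested and Slc17a7 lacked a value in 1 betamethasone animal. The 6 astrocyte markers with a value in every sample ranged from 12.77 to 13.13, from 12.58 to 12.82 and from 12.67 to 12.72 in the same groups, and the 7 microglia markers from 10.94 to 11.09, from 10.77 to 10.91 and from 10.56 to 10.90.

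Among the astrocyte markers, S100b, a calcium-binding protein gene, averaged 14.21 ± 0.145 after betamethasone with ketamine, 14.22 ± 0.05 after betamethasone and 13.69 ± 0.31 in controls (SD, n = 4 each). The glutamate transporter gene Slc1a2 averaged 12.44 ± 0.13, 12.43 ± 0.08 and 12.09 ± 0.07 in the same groups (n = 3 in controls). Aldh1l1, a folate enzyme gene, averaged 11.11 ± 0.28 after betamethasone with ketamine and 10.54 ± 0.55 after betamethasone, and the water channel gene Aqp4 14.66 ± 0.21 and 14.43 ± 0.03. Among the microglia markers, the complement gene C1qa averaged 12.09 ± 0.145 after betamethasone with ketamine, 11.99 ± 0.23 after betamethasone and 11.54 ± 0.24 in controls, and Tmem119 8.82 ± 0.21, 8.51 ± 0.16 and 8.32 ± 0.14. The integrin gene Itgam averaged 9.82 ± 0.09 after betamethasone and 10.29 ± 0.17 in controls, and the purine receptor gene P2ry12 11.21 ± 0.12 after betamethasone with ketamine and 10.81 ± 0.11 after betamethasone. Of the neuron markers, the microtubule-associated Map2 averaged 12.41 ± 0.30 after betamethasone with ketamine, 12.28 ± 0.16 after betamethasone and 11.80 ± 0.37 in controls. Tubb3 averaged 15.15 ± 0.18 after betamethasone and 14.97 ± 0.21 in controls. The synaptic vesicle gene Syt1 averaged 10.05 ± 0.24 after betamethasone with ketamine, 9.75 ± 0.18 after betamethasone and 9.56 ± 0.47 in controls, and Snap25 15.37 ± 0.05 after betamethasone with ketamine and 15.15 ± 0.32 after betamethasone.

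Markers of Schwann cells, which make peripheral myelin, had 4 of 5 past the filter (Ncmap was not) and mean levels of 7.78 to 7.93 after betamethasone with ketamine, 7.74 to 8.28 after betamethasone and 7.65 to 7.81 in controls. Prx, a peripheral myelin gene, averaged 7.47 ± 0.06, 8.03 ± 1.06 and 7.35 ± 0.04 in these groups, and Egr2 8.85 ± 0.16, 8.70 ± 0.27 and 8.55 ± 0.07. Meningeal fibroblasts also carry Cldn11, and their 5 markers ranged from 11.08 to 11.56, from 10.87 to 11.83 and from 11.09 to 11.66 in the same groups. The collagen gene Col1a1 averaged 11.63 ± 0.35, 12.12 ± 0.78 and 12.06 ± 0.32 there, Igf2 13.37 ± 0.44, 13.63 ± 0.56 and 13.30 ± 0.33, and Col1a2 12.84 ± 0.40 after betamethasone with ketamine and 12.97 ± 0.25 in controls. Lum averaged 8.52 ± 0.11 after betamethasone and 8.59 ± 0.26 in controls. Of the choroid plexus markers only Ttr and Folr1 were past the filter, and they did not move alike. Ttr averaged 7.97 ± 0.81 after betamethasone with ketamine, 7.90 ± 0.72 after betamethasone and 8.94 ± 0.59 in controls, whereas Folr1 averaged 7.65 ± 0.12, 7.50 ± 0.07 and 7.54 ± 0.08. Endothelial markers, 4 of 5 without Tek, ranged from 9.96 to 10.46, from 10.08 to 10.34 and from 9.57 to 10.19. The claudin gene Cldn5 averaged 12.48 ± 0.21, 12.33 ± 0.09 and 11.72 ± 0.61 in the same groups, Pecam1 10.27 ± 0.24, 10.07 ± 0.21 and 9.88 ± 0.21, and Esam 9.77 ± 0.54 after betamethasone with ketamine and 10.26 ± 0.16 after betamethasone.

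**Figure D5:**
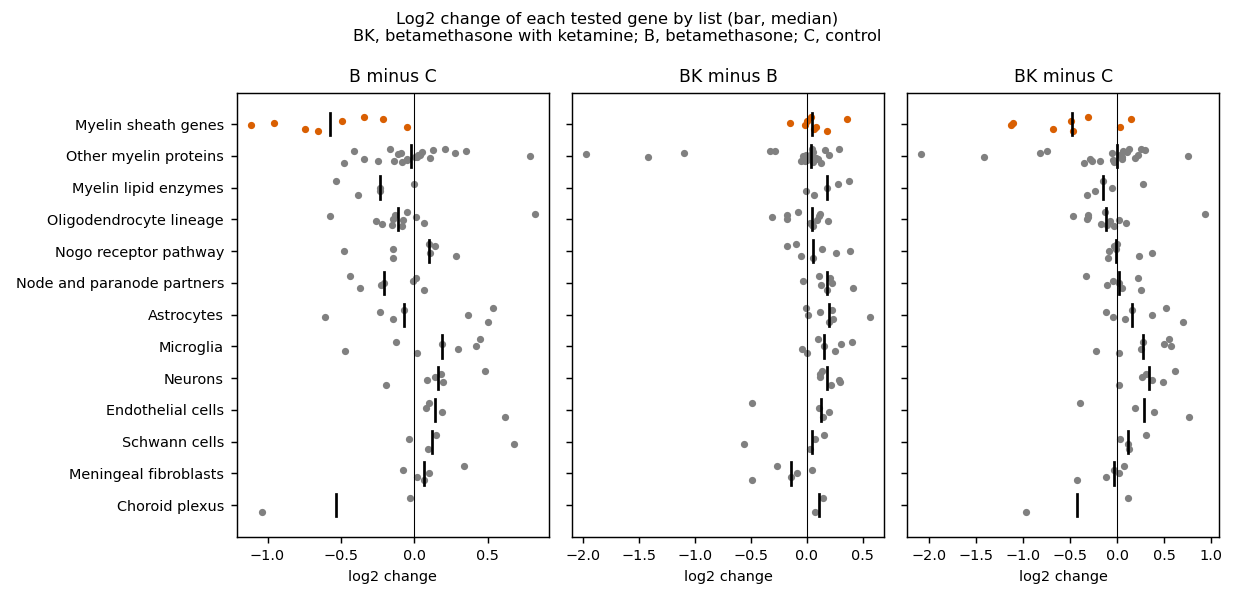
Log2 change (horizontal axis) of each tested gene by list in the 3 comparisons of betamethasone with ketamine (BK), betamethasone (B) and control (C); points are genes, 1 probe each, and bars the list's median. The myelin sheath genes (orange) have medians of -0.58, 0.05 and -0.48, and the other myelin proteins of -0.02, 0.04 and 0.00.

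Promoter windows of 300 bases, from 250 before to 50 after the gene's start, were held for 7 of the 9 genes in the RefSeq table of build GRCr8 (8 windows, since Mbp had 2). They were searched for ACAAAG, the core bound by SOX factors such as the oligodendrocyte regulator Sox10, on both strands, where its reverse complement reads CTTTGT. The core was present in 4 of the 8 windows, those of Mobp, Cnp and Mag and 1 of Mbp, and in 18.8% of all 33469 windows. The Mobp window, at chr8:128746982-128747281 (GRCr8, + strand), held CTTTGT 8 times between its bases 9 and 136, in a run of near repeats, and 3 of all windows held the core as often. It is shown for that run, with each CTTTGT in capitals.
Mobp promoter window: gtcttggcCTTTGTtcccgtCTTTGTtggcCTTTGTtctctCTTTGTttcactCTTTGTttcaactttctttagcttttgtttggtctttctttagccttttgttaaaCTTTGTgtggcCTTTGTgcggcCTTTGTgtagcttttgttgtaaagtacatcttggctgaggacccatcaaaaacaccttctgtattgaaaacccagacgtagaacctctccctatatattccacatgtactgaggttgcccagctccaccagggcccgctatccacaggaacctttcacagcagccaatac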

How the data were processed

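Total RNA was amplified, labelled with Cy3 or Cy5 and hybridized to 2-colour arrays, per the labels' protocols. The deposited scanner files hold intensity values per spot, made by the authors with Feature Extraction 11.5.1.1 (control slide) and 11.0.1.1 (the other slide), per the file headers, while the submitters' processing notes name 10.7.3.1. A deposited value table holds a ratio, each signal over its column's median, as found by setting it against the scanner values. Its columns of controls 1 and 2 matched the scanner data of controls 3 and 4 and the reverse, as the scanner file names also do, so control numbers are uncertain between these pairs. The numbers that GEO gives the scanner files were kept, and the table served only as an alternative.

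Mean signals were corrected with the median background by normexp (offset 50), normalized within each array by loess and then between arrays by Aquantile, taken as 1 sample per channel and averaged over the spots of a probe on the log2 scale, without control and outlier spots. The 21533 probes tested had 3 or more of a group's 4 samples well above background and 3 or more values per group. They were fitted in limma 3.58.1 (R 4.3.3, statmod 1.5.0): all 12 samples, a dye term, and the array as a random block (correlation 0.555). P-values are 2-sided and adjusted over all probes tested (Benjamini-Hochberg, threshold 0.05). The 2 arrays per group limit the precision. The fit was checked on simulated data, where 65% to 69% of log2 changes of 1 and 93% to 95% of changes of 2 passed. There were 5 to 9 false calls per comparison. These percentages describe the tested probes as a whole, whose median SE was 0.14 in each comparison. By their brightest probes, the member genes had larger SEs, from 0.19 for Ermn to 0.55 for Mobp. The percentages therefore cannot be read as those of the members, and the share that would pass at the members' SEs was not tested. Most member changes were also smaller than 1, so a member that did not pass may still differ.

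From the lists of myelin, lineage and cell type genes, each gene called in a comparison was to be named, otherwise the 2 with the smallest p, and the 5 profiles most like the members' mean, 1 probe (the brightest) per gene; 1 of these 5 and 1 of the named list genes are not reported here. The members and lists were chosen with earlier results of these data known. Alternatives changed background correction, scaling, filter, blocks, samples and probe choice, 1 at a time. Sequences came from the array files and RefSeq (GRCr8). Promoters of Mog and Ermn were not used here.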

Additional observations from a re-analysis of the deposited data

Results flagged for a closer look

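Among 42 sets of 4 animals (14 probes in 3 groups), 3 held an animal whose gap to the nearest other, as a share of the group's range, exceeded Dixon's 95% critical value for 4 values; chance gives about 1 such set in 20. Mog read 7.81 in betamethasone animal 1, while the other 3 betamethasone animals lay between 8.47 and 8.58 (gap share 0.847). Ermn, by the probe with 10 spots, read 7.54 in the same animal and 7.82 to 7.86 in the other 3 (0.860). Ermn also read 8.13 in ketamine animal 4, against 7.66 to 7.72 in the other 3 animals given betamethasone with ketamine (0.884).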

How the results depend on the processing

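Of the 1059 values recomputed for the 12 member probes over 30 alternatives, 963 kept their direction and their side of the threshold, 26 passed it and 75 changed sign (5 did both), 52 of these in ketamine against betamethasone, where every member difference was at most 0.36. Slide, and with it scanner software, cannot be told apart from group in comparisons with control, and 2 arrays per group limit every statement.

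The number of probes called for betamethasone against control (46) and betamethasone with ketamine against control (17) was 123 and 110 with the scanner software's processed signals, 0 and 0 with 75th percentile scaling, 86 and 43 without a filter, 1032 and 861 without the array block, 1 and 1 on array means, and 214 and 2 with only the 2 groups compared. It was 71 for the first with departing areas set to missing. For ketamine against betamethasone (0) it was 4 with the processed signals, 1 without a filter and 1 without the array block. Deviations of same-numbered animals of different groups had correlations of -0.06 to 0.10 over 12 pairs, and 6 pairs were closest to their own number. Since the control numbers are uncertain, this check cannot decide whether animals pair with controls. With a replicate block the counts were 4 and 10 against control, with no member called.

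The deposited value table, centred on all its spots, moved the median of all probes by -1.11 and -1.03 against control. Of the 16143 probes tested with it, 15383 and 15146 were called (2 for ketamine against betamethasone), so nearly every probe passed against control. Only 7 member genes could be tested with it, and all 7 were called in both comparisons with control, with medians of -1.66 and -2.01. Under it Cnp was -1.05, the Mbp variant 6 probe -1.02, the first Mobp probe -1.19 and Omg -0.99 for betamethasone with ketamine against control, and the Mbp variant 6 probe -0.80 for betamethasone against control. Cldn11 was 0.10, the downstream Mag probe -0.25 and Mog -0.35 for ketamine against betamethasone. Centred over the probes with a value in every sample, a choice made after seeing the data, the same table called 16 and 7 probes and no member gene, and the median for betamethasone with ketamine against control was -0.95. Under it Cldn11 was 0.053, the downstream Mag probe -0.19, the brightest Mobp probe -0.0013 and Mog -0.23 for ketamine against betamethasone, and the first Mobp probe -0.13 for betamethasone with ketamine against control.

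The member medians against control were -0.89 and -0.86 with the processed signals. With 75th percentile scaling they were -0.88 for betamethasone and -0.30 for betamethasone with ketamine. That scaling moved the median of all probes by -0.22, 0.35 and 0.17 in the 3 comparisons and the member median for ketamine against betamethasone to 0.37. In that comparison 1 gene was below 0 under each of these 2 and with departing areas missing. With the processed signals Cldn11 was 0.11, the upstream Mag probe 0.092, the Mbp variant 6 probe 0.0058, Mobp -0.064 by its brightest and -0.078 by its last probe for ketamine against betamethasone, Cnp 0.16 for betamethasone against control, and the first Mobp probe -0.29 for betamethasone with ketamine against control. With 75th percentile scaling Cldn11 was 0.71 and the Mbp variant 6 probe 0.21 for ketamine against betamethasone. The cause of these differences was not tested.

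Leaving out 1 animal or 1 array in turn, the probes called ranged from 3 to 496 for betamethasone against control, 0 to 2569 for ketamine against betamethasone and 3 to 3495 for betamethasone with ketamine against control, and the member genes called from 0 to 1 in each. The highest of these probe counts came without the array of ketamine animals 1 and 2 for the first comparison and without that of ketamine animals 3 and 4 for the other two. The member median for betamethasone with ketamine against control ranged from -0.74 to -0.18. For ketamine against betamethasone, 0 to 7 genes were below 0, and the ranges were -0.11 to 0.085 for Cldn11, -0.066 to 0.24 for Cnp, -0.087 to 0.16 for Ermn, -0.67 to 0.36 and -0.20 to 0.25 for the upstream and downstream Mag probes, -0.19 to 0.55 for the Mbp variant 1 probe, -0.46 to 0.58 and -0.13 to 0.35 for the brightest and last Mobp probes and -0.19 to 0.19 for Mog. Cnp ranged from -0.46 to 0.36 for betamethasone against control. For betamethasone with ketamine against control the ranges were -0.38 to 0.45 for Cnp, -0.001 to 0.31 for the Mbp variant 6 probe, -0.11 to 0.15 for the first Mobp probe and -0.13 to 0.41 for Omg.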

Other observations

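The second probe of Ermn, at chr3:39823067-39823126, passed no filter and was not tested. It was not well above background in any control, and was so in 1 of 4 animals given betamethasone with ketamine and 2 of 4 betamethasone animals. It read 7.35, 7.38, 7.23 and 7.46 after betamethasone with ketamine, 9.56, 8.22, 7.10 and 7.53 after betamethasone, and 7.37, 7.46, 7.38 and 7.35 in controls. The means were 8.10 ± 1.08 after betamethasone and 7.39 ± 0.05 in controls (SD, n = 4 each). Their ratio of 1.64-fold is no lower bound, and it was set by betamethasone animals 1 and 2, which shared an array. The other Ermn probe, 1957 bases downstream, was lowest of all 12 animals in betamethasone animal 1. Each spot of this second probe was alone on its array.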
